A study of Mus musculus with 23 samples.

Results

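Gpr17 and Lims2 are neighbouring mouse genes that overlap on opposite strands, and they are 2 of the 35385 gene rows of the count tables. They were picked by name across all 23 libraries of a study of oligodendrocyte maturation. Gpr17 was picked because, in an earlier look at these libraries, it was among the transcripts most reduced after Sox6 was targeted, and Lims2 because it spans Gpr17. The values that chose Gpr17, and Lims2 through it, are therefore the differences between SOX6-targeted and control libraries. For both genes these are given below as descriptions with no test. Both genes passed the filters on low values in every comparison. Lims1, a paralogue of Lims2 on another chromosome, is given beside them.

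Messenger RNA was sequenced in 17 libraries of the SOX6 experiment and in 6 libraries of sorted cells. Every library traces to mouse oligodendrocyte progenitor cells (OPCs), which had been derived from epiblast stem cell lines of the strains 129SvEv and 129S1/SvImJ and purified for CD140a and NG2, and the line behind each library is not used here. In the SOX6 experiment, OPCs carried a lentiviral CRISPRv2 vector with SOX6 guide 1, SOX6 guide 2 or the non-targeting guide of the controls, and every group had been selected in puromycin at 500 ng/mL for 96 hours. The cells were pools of infected cells, not clones, from the same original batch of OPCs. After 60 hours in medium that permits differentiation but lacks thyroid hormone, 3 libraries of guide 1, 3 of guide 2 and 3 controls were made, and these unsorted cultures are called oligodendrocytes (OLs) as in the labels. After 60 hours in growth medium with FGF2 and PDGFA, 2 libraries of guide 1, 3 of guide 2 and 3 controls were made, called OPCs. The sorted set held 3 libraries of O1-positive OLs and 3 of OPCs, both magnetically purified and given as TPM alone. Whether the libraries within a group are separate cultures is not stated, so the p-values speak to differences among these libraries alone, which may be technical. Libraries are named here by the letters A, B and C of the deposited tables.

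GPR17 is a class A G protein-coupled receptor made by committed oligodendrocyte precursors. Its level peaks in precursors that have left the progenitor state and falls again before myelin is made, and in mice its activity holds back terminal differentiation. It couples mainly to inhibitory G proteins, which lower cyclic AMP. LIMS2, also called PINCH2, is a small adaptor built of LIM domains that joins integrin-linked kinase and a parvin into the IPP complex (ILK, PINCH, parvin) at integrin adhesions. LIMS1 (PINCH1) takes the same place in that complex. SOX6 is a SOXD transcription factor of the oligodendrocyte lineage.

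The guides that separate the groups are shown because every comparison of targeted with control cells rests on them. Lower case letters are the guide as the labels give it, 5′ to 3′, and the capitals are the GGG that follows the matched site in annotated Sox6 transcripts (GENCODE M21, chromosome 7). Guide 1 matched 12 of these transcripts on the opposite strand, guide 2 matched 10 on the transcript strand, and the non-targeting guide matched no transcript.
sgSox6 g1: ttgacggaatgaactgtacgGGG
sgSox6 g2: agaacacgctttgagaacctGGG
sgNTC: aagcctacttcaccggtcgg

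In the GRCm38 (mm10) annotation of GENCODE M21, Gpr17 (ENSMUSG00000052229.5) lies on the minus strand at chr18:31942997-31949636 and has 1 transcript of 5195 bases in 2 exons. Its coding sequence of 1017 bases lies inside the longer exon of 5019 bases, so most of the transcript is 3′ untranslated region. Lims2 (ENSMUSG00000024395.9) lies on the plus strand at chr18:31922290-31958619 and has 12 transcripts of 175 to 1870 bases. Gpr17 thus sits wholly within the span of Lims2. The overlap of mature transcripts is small. It consists of 2 Lims2 exons, of 67 bases (chr18:31944139-31944205) and 121 bases (chr18:31944436-31944556), which lie within the 3′ untranslated region of Gpr17. Together these 188 bases are 3.62% of the Gpr17 transcript and 6.14% of the exonic bases of Lims2, and 0 of them are in Gpr17 coding sequence. They are part of 5 of the 12 Lims2 transcripts, among them the longest. Counted as words of 31 bases on either strand, 134 words are shared, which is 2.59% of those of Gpr17 and between 7.28% and 33.0% of those of the 5 Lims2 transcripts. Lims1 (chr10:58323466-58424691) shares 0 such words with Lims2. Rbmxl2, another gene, shares 21 words with Lims2. The library kit does not mark strand, so a read within the shared bases cannot be told apart by strand.

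**Figure D1:**
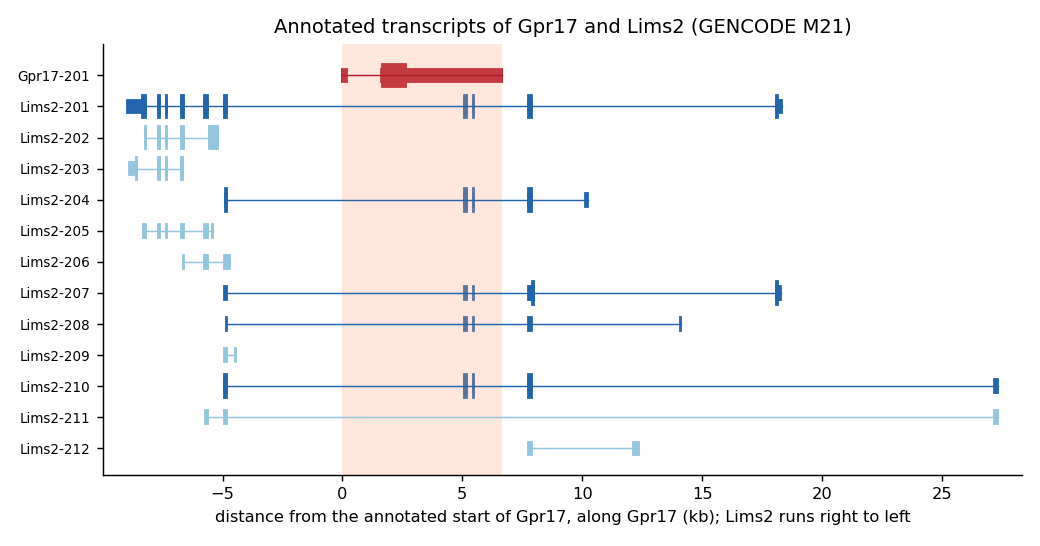
Annotated transcripts of Gpr17 (red) and Lims2 (blue), drawn to scale by distance in kb from the annotated start of Gpr17; thin boxes are exons, tall boxes coding sequence, and the shaded band is the span of Gpr17. The 5 Lims2 transcripts in dark blue have the 2 exons, 188 bases in all, that lie in the 3′ end of Gpr17, and the 7 in pale blue do not.

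Library totals were 13124580 to 18551822 estimated counts over 9 OL libraries, and 13967438 to 16958611 over 8 OPC libraries. The targeted gene was lower in every targeted library: Sox6 lay between 67.4 and 88.9 CPM in targeted OPCs, against 165 to 234 CPM in control OPCs, and between 157 and 259 CPM in targeted OLs, against 387 to 437 CPM in control OLs (CPM, counts divided by the TMM-adjusted size of each library). Sox6 was higher in control OLs than in control OPCs, by 1.05 on the log2 scale (SE 0.163, adjusted p = 0.000104, edgeR). In sorted OLs it was higher than in sorted OPCs by 0.78 (SE 0.175, adjusted p = 0.00668, limma). Markers of the lineage were abundant, with 0 of 7 OPC markers absent from any group. The 8 microglial markers together stayed between 0.624 and 1.75 CPM, the 7 endothelial markers between 4.98 and 10.4 CPM and the 7 pluripotent markers between 1.06 and 3.57 CPM. The 9 astrocyte markers summed to 6203 to 8503 CPM in OLs, against 1151 to 1488 CPM in OPCs. Within each stage their sum was higher in targeted libraries, at 7012 to 8503 CPM in targeted OLs against 6203 to 6494 CPM in control OLs, and at 1348 to 1488 CPM in targeted OPCs against 1151 to 1252 CPM in control OPCs. Singly, edgeR called 3 of the 9 as higher in targeted OPCs and 1, Aldoc, in targeted OLs. Over all genes 1.95% and 3.13% were called higher. In targeted OLs S100b (-0.25), Slc1a2 (-0.057) and Slc1a3 (-0.039) had log2 differences below 0. The part of such cells in the results below was not tested. Library B of guide 1 in OLs stood apart: its counts differed from those of libraries A and C by a chi-square of 103 and 100 per degree of freedom, where pairs of libraries within other groups gave 5.69 to 24.2. The changes of Gpr17 and Lims2, the ratio of their changes, the profile ranking and the list counts in targeted OLs are also given without it. Single listed genes in targeted OLs are given with it.

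In OPCs, Gpr17 transcripts were lower in every SOX6-targeted library than in every control library. Gpr17 had 6.47 and 4.69 CPM with guide 1 and 7.20, 7.0 and 8.19 CPM with guide 2, against 39.6, 59.8 and 54.4 CPM in control OPCs. The targeted mean of 6.71 CPM was 13.1% of the control mean of 51.3 CPM, and the groups did not overlap. For this and every separation of libraries given below, the share of all genes that separate likewise was not counted. Separation of targeted from control libraries is description alone, since that contrast chose the genes. The fitted log2 difference, targeted minus control, was -2.97 (standard error, SE, 0.162), rank 53 from the lowest of 13358 genes tested, whose median was -0.0049. Guide 1 alone gave -3.16 (SE 0.227) and guide 2 alone -2.77 (SE 0.188). Since these are bulk cultures, fewer cells with the transcript and less transcript per cell cannot be told apart. As the background of that comparison, edgeR's quasi-likelihood test called 3.59% of genes after Benjamini-Hochberg adjustment, 1.95% as higher and 1.63% as lower. Nothing is read from these shares for genes chosen on the same contrast. The 9 markers of mature oligodendrocytes summed to 192 to 232 CPM in targeted OPCs, against 134 to 168 CPM in control OPCs, and the part of such cells in the difference was not tested. Most of these sums was Cnp, at means of 209 CPM with guide 1, 194 CPM with guide 2 and 139 CPM in control OPCs.

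Lims2 was also lower in every targeted OPC library, with fewer reads than Gpr17. CPM makes no allowance for transcript length, so it does not rank the levels of the 2 genes, whose TPM are compared below. Lims2 had 1.26 and 0.842 CPM with guide 1 and 0.78, 0.643 and 0.783 CPM with guide 2, against 3.23, 4.37 and 3.54 CPM in control OPCs. Behind these stand only 22 and 14 reads with guide 1 and 13, 9 and 13 with guide 2, against 45, 70 and 50 in control OPCs, so counting error alone is large. The targeted mean of 0.861 CPM was 23.2% of the control mean of 3.71 CPM, with no overlap of the groups. The log2 difference was -2.05 (SE 0.265), with -1.78 (SE 0.350) for guide 1 and -2.31 (SE 0.314) for guide 2.

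In OLs the targeted libraries again lay below all controls for both genes. Gpr17 had 484, 306 and 476 CPM with guide 1 and 618, 575 and 592 CPM with guide 2, against 1683, 1642 and 1598 CPM in control OLs. The lowest of these was library B of guide 1. The targeted mean of 509 CPM was 30.99% of the control mean of 1641 CPM, so targeted OLs still held far more Gpr17 than control OPCs. The log2 difference was -1.71 (SE 0.132), and -1.63 (SE 0.0320) without library B of guide 1. In this comparison 6.5% of 13447 genes were called, 3.13% as higher and 3.37% as lower, and 16.9% without that library. Markers of mature oligodendrocytes summed to 2552 to 2994 CPM in targeted OLs, against 2062 to 2262 CPM in control OLs, and neuron markers to 892 to 1820 CPM in targeted OLs, against 2015 to 2097 CPM in control OLs. The part of such cells in the result was not tested. Most of the neuron sum was Map2, whose own log2 difference was -0.36 (SE 0.211, adjusted p = 0.422, edgeR).

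Lims2 in OLs had 13.9, 15.9 and 13.4 CPM with guide 1 and 16.9, 13.3 and 16.5 CPM with guide 2, against 53.5, 56.8 and 52.3 CPM in control OLs. Library B of guide 1, lowest for Gpr17, was the highest of its group for Lims2. The targeted mean of 14.98 CPM was 27.6% of the control mean of 54.2 CPM. The log2 difference was -1.86 (SE 0.0983), and -1.90 (SE 0.0875) without that library. The authors' deposited tables give the same comparison as control over targeted, at log2 2.92 (SE 0.197) in OPCs and 1.69 (SE 0.199) in OLs for Gpr17. For Lims2 the authors' deposited tables give 1.87 (SE 0.635) and 1.36 (SE 0.384).

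**Figure D2:**
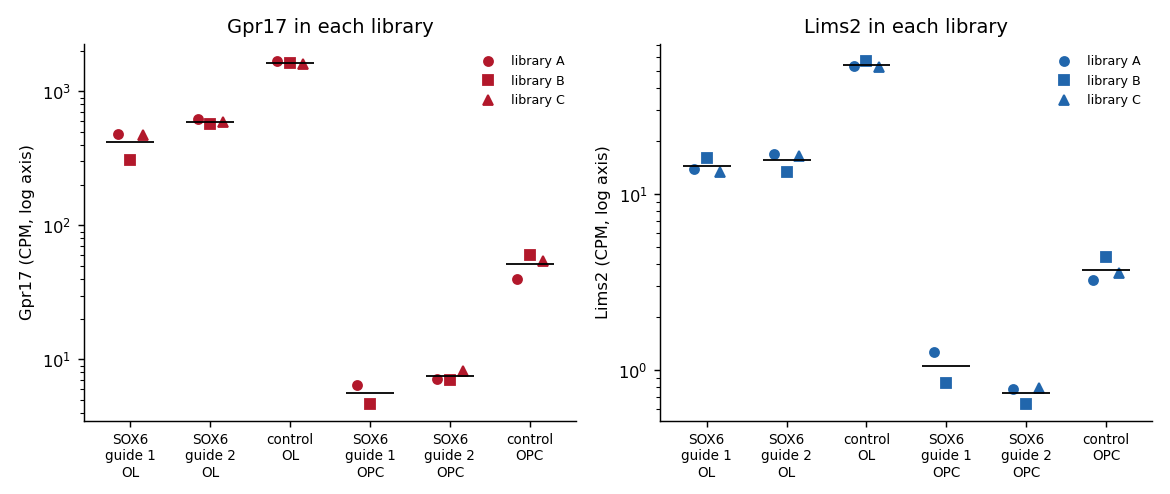
Gpr17 (left) and Lims2 (right) in each library of the SOX6 experiment, in CPM on a log axis; points are libraries, lines group means. In both stages every targeted library lies below every control library, and for both genes every OL library lies above every OPC library.

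Lims1 gave no such pattern, but its row held few reads. It had between 0.180 and 1.29 CPM in targeted OPCs, against 0.573 to 0.708 CPM in control OPCs, and between 0 and 1.68 CPM in targeted OLs, against 0.378 to 0.648 CPM in control OLs. The groups overlapped in both stages. The log2 difference was -0.23 (SE 0.634, adjusted p = 0.907, edgeR) in OPCs and -0.16 (SE 0.967, adjusted p = 0.956, edgeR) in OLs, and the sign in OLs changed when single libraries were left out. Errors of this size leave room for a change of either direction, so Lims1 is a weak point of comparison. The transcript length implied for its reads, given below, was also short.

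The difference between the guides was not used to choose the genes and was tested. In OPCs, guide 2 minus guide 1 was 0.39 (SE 0.223, adjusted p = 0.707, edgeR) for Gpr17 and -0.53 (SE 0.353, adjusted p = 0.738, edgeR) for Lims2. The signs differed between the genes, and neither passed the threshold. In OLs it was 0.49 (SE 0.158, adjusted p = 0.692, edgeR) for Gpr17 and 0.11 (SE 0.121, adjusted p = 0.748, edgeR) for Lims2. Gpr17 was higher in each guide 2 OL library than in each guide 1 OL library, and without library B of guide 1 the difference was 0.30 (SE 0.0409, adjusted p = 0.151, edgeR). With an offset for the transcript length that the quantifier implied, described below, the Lims2 difference in OLs was 1.09 (SE 0.330, adjusted p = 0.698, edgeR). Over all genes edgeR called 0 (0%) in either stage, with 1106 genes (8.28%) in OPCs and 773 (5.75%) in OLs at an unadjusted p under 0.05, and DESeq2 called 112 in OPCs and 29 in OLs. That the guides act alike is not shown by this.

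Both genes were far higher in OLs than in OPCs. Among control libraries, Gpr17 averaged 1641 ± 42.7 CPM in OLs and 51.3 ± 10.4 CPM in OPCs (SD, n = 3 each). That is a log2 change of 5.0 (SE 0.194, adjusted p = 6.39e-11, edgeR), or 32.0-fold, higher in 3 of 3 OL libraries than in any OPC library. It ranked 109 from the highest of 14352 genes, of which 43% were called, 21.4% as higher and 21.6% as lower. Lims2 averaged 54.2 ± 2.36 CPM in control OLs and 3.71 ± 0.592 CPM in control OPCs (SD, n = 3 each). Its log2 change was 3.86 (SE 0.164, adjusted p = 1.43e-10, edgeR), or 14.5-fold. Lims1 gave -0.25 (SE 1.02, adjusted p = 0.872, edgeR). Stage and deposited table coincide in this comparison and cannot be told apart.

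The same stage change was measured in the targeted cells, whose libraries are separate from the controls. Gpr17 was 6.28 higher on the log2 scale in targeted OLs than in targeted OPCs (SE 0.173, adjusted p = 5.29e-13, edgeR), or 77.5-fold, in a comparison that called 52.4% of genes, and 58.9% without library B of guide 1. Lims2 was 4.07 higher (SE 0.142, adjusted p = 5.83e-12, edgeR), or 16.8-fold. Without library B of guide 1 the changes were 6.37 (SE 0.115) for Gpr17 and 4.03 (SE 0.137) for Lims2. The rise with stage was thus measured in targeted as well as in control cells for both genes. With the length offset, the change of Lims2 was 4.87 (SE 0.472) in targeted and 4.52 (SE 0.551) in control cells.

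Set side by side, the SOX6 response of Gpr17 was smaller on the log2 scale in OLs than in OPCs, by 1.28 (SE 0.219), while that of Lims2 differed by 0.21 (SE 0.197). Without library B of guide 1 the values were 1.37 (SE 0.154) for Gpr17 and 0.17 (SE 0.190) for Lims2. Both are built from the contrasts that chose the genes and carry no test. Over all genes, 1.69% were called in this comparison, and 4.46% without library B of guide 1. On the CPM scale the order is the other way, since the loss of Gpr17 was 1132 CPM in OLs and 44.5 CPM in OPCs.

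Sorted cells showed the same order of levels. Markers of mature oligodendrocytes summed to 25848 TPM or more in sorted OLs and to at most 75.9 TPM in sorted OPCs, and astrocyte markers to 2056 to 4094 TPM in sorted OLs, against 496 to 562 TPM in sorted OPCs. The part of astrocytes in the differences was not tested. Gpr17 had 814, 865 and 864 TPM in sorted OLs, against 8.59, 6.88 and 19.1 TPM in sorted OPCs. Its log2 change was 6.21 (SE 0.315, adjusted p = 4.97e-06, limma on log2(TPM + 1)), rank 33 from the highest of 11900 genes tested. In this comparison 61% of genes tested were called, 26.6% as higher and 34.4% as lower in sorted OLs. The groups did not overlap, and library C of the sorted OPCs was the highest of its group.

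Lims2 had 198, 167 and 305 TPM in sorted OLs, against 1.34, 0.711 and 30.1 TPM in sorted OPCs. That library was again the highest of its group, by far more than for Gpr17. The log2 change of Lims2 was 5.44 (SE 1.02, adjusted p = 0.00288, limma), and 6.76 (SE 0.278, adjusted p = 1.49e-05, limma) without that library. For Gpr17 the value without it was 6.61 (SE 0.0957). Lims1 had 2.23, 2.58 and 2.11 TPM in sorted OLs, against 2.78, 3.04 and 3.30 TPM in sorted OPCs, a log2 difference of -0.29 (SE 0.159, adjusted p = 0.155, limma) that did not pass the threshold.

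**Figure D3:**
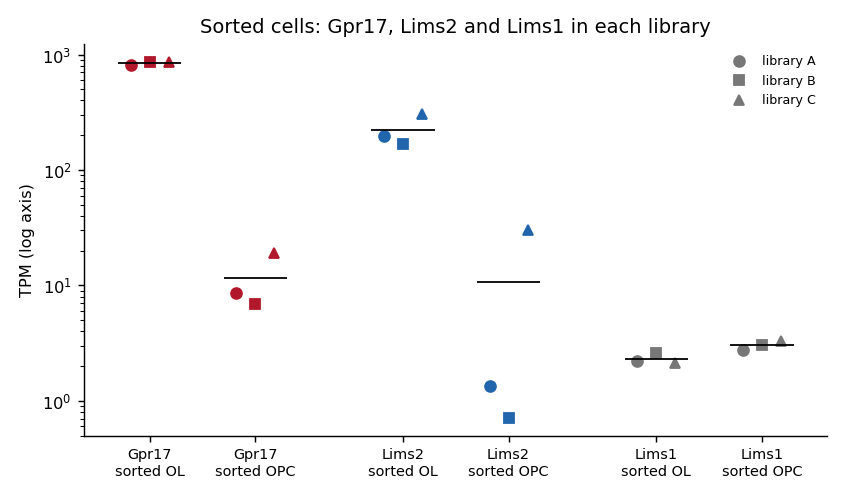
TPM of Gpr17, Lims2 and Lims1 in each sorted library on a log axis; points are libraries A to C and lines are means. All OL libraries lie above all OPC libraries for Gpr17 and Lims2, and OPC library C lies apart for Lims2 at 30.1 TPM.

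Because the genes overlap and strand is not marked, the question of whether the Lims2 row follows Gpr17 library by library was taken up with the ratio of their values. Within groups, the log2 CPM of Gpr17 and Lims2 lay on the same side of their group means in 10 of 17 libraries. The ratio was not constant. In counts, Lims2 was 19.5% and 17.9% of Gpr17 with guide 1, 10.8%, 9.18% and 9.56% with guide 2, and 8.14%, 7.31% and 6.51% in control OPCs. Every targeted OPC library thus lay above every control OPC library. In OLs, Lims2 was 2.87%, 5.19% and 2.81% of Gpr17 with guide 1 and 2.73%, 2.32% and 2.79% with guide 2, against 3.18%, 3.46% and 3.27% in control OLs. The 5.19% is library B of guide 1; the other 5 targeted OL libraries lay below all 3 controls.

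The ratio was therefore lower in OLs than in OPCs, with no overlap of the stages. The Lims2 count exceeded 3.62% of the Gpr17 count, the share of the Gpr17 transcript that overlaps Lims2 exons, in 8 of 8 OPC libraries and in 1 of 9 OL libraries. That split depends on the share chosen. Against the share of 31-base words, 2.59%, only library B of guide 2 in OLs, at 2.32%, lay below. Neither share is the share of reads that fit both genes, which was not measured. Differences between groups give the ratio in another form. Per 100 CPM of change in Gpr17, Lims2 changed by 3.46 CPM (SE 0.193) between targeted and control OLs and by 6.40 CPM (SE 0.504) between targeted and control OPCs. Between control OLs and control OPCs it changed by 3.18 CPM (SE 0.0874), and between targeted OLs and targeted OPCs by 2.81 CPM (SE 0.279). Without library B of guide 1, a choice made after seeing the data, the values were 3.61 CPM (SE 0.144) between targeted and control OLs and 2.57 CPM (SE 0.101) between targeted OLs and targeted OPCs.

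Estimated counts can depart from whole numbers where the quantifier divides a read between genes. Lims2 was a whole number, within 0.001, in 15 of 17 libraries, Gpr17 in 7 and Lims1 in 1. The 7 with whole Gpr17 counts were all OPC libraries. Lims1 shares 0 words of 31 bases with Gpr17 or Lims2, so a fraction alone does not mark reads shared by that pair. How many reads within the shared bases were given to each gene was not tested.

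In TPM the ratio was both higher and less stable. Lims2 reached 151% and 104% of the TPM of Gpr17 with guide 1, and 135%, 56.8% and 29.3% with guide 2, against 26.1%, 22.4% and 81.0% in control OPCs. In OLs it was 21.9%, 19.4% and 38.8% with guide 1 and 41.7%, 39.3% and 42.3% with guide 2, against 28.0%, 26.3% and 29.99% in control OLs. In sorted cells it was 24.3%, 19.3% and 35.3% in OLs, against 15.6%, 10.3% and 158% in OPCs. In library C of the sorted OPCs, Lims2 thus exceeded Gpr17.

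Counts over TPM give the transcript length that the quantifier implied for a gene in each library, expressed here as a share of the library's median over genes. For Gpr17 this length was stable, between 254% and 269% of the median in all 17 libraries, and for Lims1 it was between 12.2% and 13.7% in the 16 libraries with a read. As a share of the length implied for Gpr17, that of Lims1 was 4.70% to 5.23%. The Gpr17 transcript has 5195 bases, the protein-coding Lims1 transcripts 1205 to 4327, and the noncoding processed ones 485 and 515. Which Lims1 transcripts the reads came from was not tested, so the Lims1 row may not stand for coding Lims1. For Lims2 it ranged from 15.3% to 86.1%. It was 34.1% and 45.3% with guide 1 and 21.1%, 41.9% and 86.0% with guide 2, against 80.3%, 86.1% and 21.1% in control OPCs. In OLs it was 35.1%, 68.0% and 19.1% with guide 1 and 17.3%, 15.3% and 17.3% with guide 2, against 30.5%, 34.8% and 28.6% in control OLs. The length implied for Lims2 thus differed from library to library within a group, and guide 2 OLs lay below all control OLs. Control OPC library C shows what this does to a TPM: its Lims2 count, 50, lies between those of libraries A and B, yet its TPM was 9.70, against 2.01 and 2.77 TPM in those. In the sorted cells, which come without counts, the implied length was not measured. A fit with an offset for implied length gave Lims2 log2 differences of -1.84 (SE 0.626) for targeted minus control OPCs and -1.46 (SE 0.267) for targeted minus control OLs, and left those of Gpr17 at -2.97 and -1.71.

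**Figure D4:**
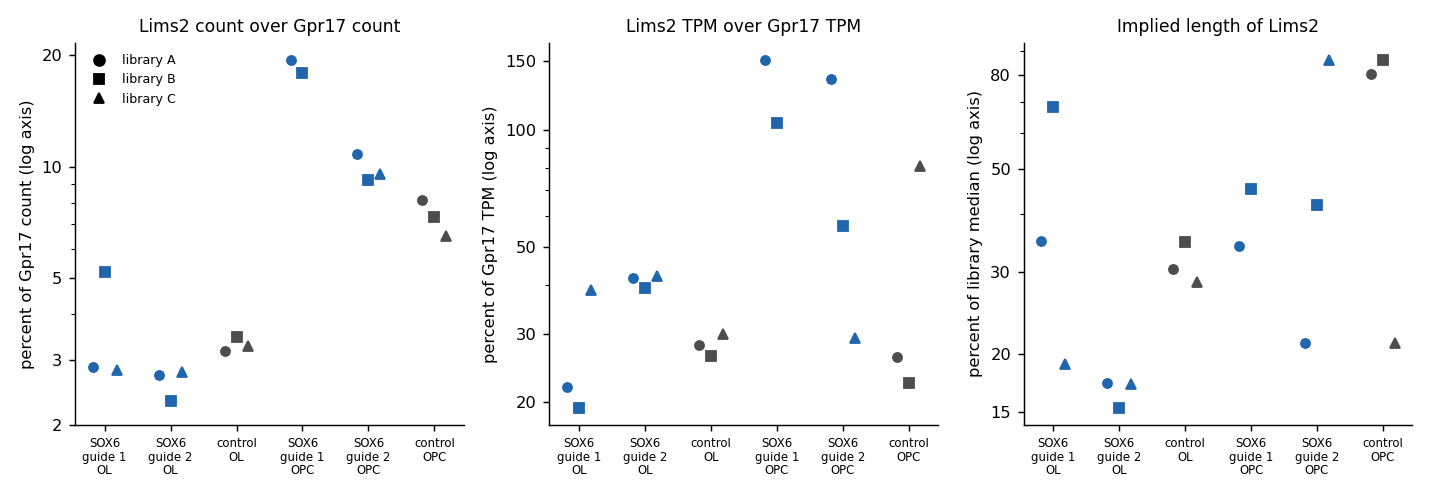
Lims2 as a percent of Gpr17 in estimated counts (left) and TPM (middle), and the implied length of Lims2 as a percent of the library's median (right), per library on log axes, with targeted libraries in blue and controls in grey. The count ratio is below 6% in every OL library and above 6% in every OPC library, while the TPM ratio and the implied length scatter within groups, most in OPCs.

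The other protein-coding genes within 300 kb of Gpr17 were compared with the pair. Of 8 tested in OPCs and 8 in OLs, 0 were called in targeted against control cells by edgeR or DESeq2, with 1 in each stage at an unadjusted p under 0.05, and their log2 differences lay between -0.32 and 0.055. Sft2d3, the next gene on the side of the 5′ end of Lims2, which encodes a small membrane protein, had -0.12 (SE 0.138, adjusted p = 0.720, edgeR) in targeted OPCs and -0.20 (SE 0.111, adjusted p = 0.404, edgeR) in targeted OLs. In control OLs against control OPCs, 2 of 9 were higher (Sft2d3 by 0.51 and Map3k2, a MAP kinase kinase kinase, by 0.63) and 2 lower (Wdr33, of RNA polyadenylation, by -0.21, and Ercc3, a helicase of TFIIH, by -0.38). In sorted OLs against sorted OPCs, Sft2d3 rose by 2.19 (SE 0.142, adjusted p = 1.46e-05, limma). Map3k2 (0.58) and Sap130 (0.39), part of a histone deacetylase complex, were also higher there, and Iws1, an elongation factor, was lower (-0.56). Changes of the size of those of Gpr17 and Lims2 were thus not measured in these neighbours.

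Genes whose profile over the 6 groups of the SOX6 experiment was most like that of Gpr17 were ranked by the root mean square difference of centred mean log2(CPM + 1), among 8878 genes with at least 10 CPM in their highest group. The nearest were Tnr, which encodes the matrix protein tenascin-R (0.765), Neu4, a sialidase (0.901), Fa2h, which hydroxylates the fatty acids of myelin lipids (0.993), Luzp2, a leucine zipper protein (1.05), and Abhd3, a phospholipase (1.09). Tnr averaged 304 ± 175 CPM in guide 1 OLs (SD, n = 3) and 495 CPM in guide 2 OLs against 895 CPM in control OLs, and 11.9 and 12.7 CPM in the targeted OPCs against 25.3 CPM in control OPCs. Lims2 came 15th in that ranking, at a difference of 1.35. Nearest to Lims2 were Gjc3 (0.259), which encodes a connexin of glia, Afap1l2 (0.271), Shisal1 (0.279), Capn6 (0.293) and Elfn2 (0.310), all nearer than any gene was to Gpr17. From Lims2, Gpr17 came 647th. Without library B of guide 1, the same 5 genes were nearest to Gpr17 and the same 5 to Lims2, with Gpr17 at rank 785 from Lims2, and Tnr averaged 405 CPM in guide 1 OLs. These rankings describe 6 group means that share their libraries and include the contrasts that chose the genes. The added 1 also shrinks the differences of low genes. Lims2, at group means of 0.735 to 3.71 CPM in OPCs, is shrunk more than Gpr17, at 5.58 to 51.3 CPM, so the ranks depend in part on level.

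Known partners of the receptor were read from lists, of which the cyclic AMP list matters most because the label of the differentiation medium includes cyclic AMP. Of 21 tested genes of GPR17 coupling and cyclic AMP effectors, 0 were called in targeted OPCs by edgeR, against 1 by DESeq2 and 7 at an unadjusted p under 0.05, with a median log2 difference of -0.0012 beside -0.0049 over all genes. In targeted OLs 2 were higher and 1 lower, with a median of 0.082 beside -0.00078 over all genes. Gnai1, an inhibitory G protein subunit, averaged 75.5 ± 7.86 CPM with guide 1 and 73.0 ± 3.33 CPM with guide 2, against 50.1 ± 3.05 CPM in control OLs (SD, n = 3 each), a log2 change of 0.56 (SE 0.0844, adjusted p = 0.00483, edgeR). Adcy2, an adenylyl cyclase, was higher by 0.76 (SE 0.0813, adjusted p = 0.000880, edgeR), and Rapgef3, the cyclic AMP sensor EPAC1, was lower by 0.41 on the log2 scale (SE 0.0632, adjusted p = 0.00528, edgeR). Without library B of guide 1 the list had 6 higher and 5 lower, while the share called over all genes rose from 6.5% to 16.9%. For this and the lists below, the share of all genes called in targeted OPCs was 3.59%.

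Of 12 tested genes of receptor desensitisation and trafficking, 2 were higher in targeted OPCs (median -0.079) and 2 in targeted OLs (median -0.071). Slc9a3r1, a PDZ scaffold protein (NHERF1), was among them in both stages, at 0.33 (SE 0.0515, adjusted p = 0.0136, edgeR) in OPCs and 0.73 (SE 0.0627, adjusted p = 0.000287, edgeR) in OLs. Grk3, a receptor kinase, rose by 0.30 (SE 0.0619, adjusted p = 0.0381, edgeR) in OPCs, a call that 9 of 14 alternatives ended. Rgs16, which speeds the turn-off of G proteins, rose by 1.80 (SE 0.290, adjusted p = 0.00682, edgeR) in OLs, at mean levels under 3 CPM. The list again had 2 higher and 0 lower in targeted OLs without library B of guide 1, beside 16.9% of all genes called.

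The genes of the cysteinyl leukotriene receptors, Cysltr1 and Cysltr2, averaged at most 0.0956 CPM in any group of the SOX6 experiment and were too low to test. Of 8 tested genes for leukotriene and nucleotide receptors and enzymes of their ligands, Ugp2, which makes UDP-glucose, was higher in targeted OLs by 0.73 (SE 0.176, adjusted p = 0.0433, edgeR), a call that 8 of 15 alternatives ended. Nt5e, the ecto-nucleotidase CD73, was lower by 1.51 on the log2 scale (SE 0.220, adjusted p = 0.00421, edgeR). In targeted OLs without library B of guide 1, 1 was higher and 2 were lower, beside 16.9% of all genes called. In targeted OPCs 0 of 6 were called by edgeR, against 1 by DESeq2 and 2 at an unadjusted p under 0.05. The medians were -0.27 in OLs and -0.22 in OPCs.

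The IPP complex gives the setting of Lims2. Lims2 itself was chosen through Gpr17, which was picked on the targeting contrasts, and is not counted. Of the other 18 tested genes of this complex and of integrin adhesion, 0 were called in targeted OPCs by edgeR or DESeq2, and 0 at an unadjusted p under 0.05 (median of the list with Lims2, -0.083). In targeted OLs, Parvb, which encodes the partner beta-parvin, was lower, and Tgfb1i1 (Hic-5, a LIM adaptor of focal adhesions) was higher by 1.00 (SE 0.198, adjusted p = 0.0192, edgeR), a call that 3 of 15 alternatives ended, with a list median of 0.020. Leaving out library B of guide 1, 3 were higher and 1 lower, beside 16.9% of all genes called. Parvb averaged 53.0 ± 7.24 CPM with guide 1 and 64.0 ± 2.79 CPM with guide 2, against 127 ± 3.26 CPM in control OLs (SD, n = 3 each), a log2 change of -1.12 (SE 0.0905, adjusted p = 0.000223, edgeR). In targeted OPCs it gave -0.11 (SE 0.0756, adjusted p = 0.514, edgeR).

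With stage, Parvb moved as Lims2 did. It was higher in control OLs than in control OPCs by 1.89 (SE 0.0968, adjusted p = 9.99e-10, edgeR), and had 440 TPM on average in sorted OLs against 10.4 TPM in sorted OPCs. Parva, the alpha-parvin, went the other way in sorted cells, with means of 0.168 TPM in OLs and 6.84 TPM in OPCs (log2 -2.69, SE 0.265, adjusted p = 0.000116, limma). Ilk, the kinase-like centre of the complex, was higher in sorted OLs by 1.89 (SE 0.0700, adjusted p = 1.23e-06, limma), but gave -0.09 (SE 0.0905, adjusted p = 0.477, edgeR) in control OLs against control OPCs. Parvg, the gamma-parvin, stayed below 1 CPM on average in every group of the SOX6 experiment. It was higher in control OLs than in control OPCs by 2.04 (SE 0.707, adjusted p = 0.0305, edgeR), and in sorted OLs, at a mean of 3.40 TPM against 0.301 TPM in sorted OPCs, by 1.76 (SE 0.311, adjusted p = 0.00213, limma). Rsu1, which binds PINCH proteins, was higher by 0.61 in control OLs than in control OPCs and lower by 0.65 on the log2 scale in sorted OLs. The adaptor gene Nck2 was lower in OLs in both sets, by 0.94 on the log2 scale in each.

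Of 12 transcription factors linked to Gpr17 in the lineage, 3 fell in targeted OPCs and 5 in targeted OLs, with medians of 0.0044 and -0.32. Without library B of guide 1, 7 fell in targeted OLs. Each of these 3 counts includes Sox6, the gene the guides target, so that call is not a result about the list. The shares of all genes called in these 3 comparisons were 3.59%, 6.5% and 16.9%. Sox10, which drives the oligodendrocyte programme, fell in both. It averaged 14.2 and 15.1 CPM in guide 1 and guide 2 OPCs against 29.2 CPM in control OPCs, and 132 and 162 CPM in guide 1 and guide 2 OLs against 266 CPM in control OLs. The log2 changes were -0.97 (SE 0.114, adjusted p = 0.00356, edgeR) in OPCs and -0.86 (SE 0.0634, adjusted p = 0.000138, edgeR) in OLs. Sox6 itself was called in both, and 3 of 15 alternatives ended its call in OLs. Id2, an inhibitor of bHLH factors, fell by 0.48 on the log2 scale in OPCs (adjusted p = 0.0461, edgeR), a call that 10 of 14 alternatives ended. In OLs the lineage factor Nkx2-2 fell by 0.37 (adjusted p = 0.0196, edgeR) and Olig2 by 0.27 (adjusted p = 0.0419, edgeR), and alternatives ended the call of Nkx2-2 in 6 of 15 and of Olig2 in 9 of 15.

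Other genes of the stage at which Gpr17 is made did not share 1 pattern. Of 15 tested genes of committed precursors and newly formed oligodendrocytes, 2 were higher and 1 lower in targeted OPCs, with a median of 0.089. Bcas1, an early myelinating marker, rose by 0.30 (SE 0.0570, adjusted p = 0.0292, edgeR) and the tetraspanin gene Cd9 by 0.32 (SE 0.0627, adjusted p = 0.0321, edgeR), where Gpr17 was low; alternatives ended these calls in 7 and 8 of 14. Tnr fell by 1.02 on the log2 scale (SE 0.130, adjusted p = 0.00522, edgeR). In targeted OLs, 0 of 17 were higher and 6 lower, with a median of -0.54, and 10 were lower without library B of guide 1. Beside these stand 6.5% of all genes called with that library and 16.9% without it. With every library in, Bcas1 averaged 373 and 438 CPM in guide 1 and guide 2 OLs against 877 CPM in control OLs, a log2 change of -1.12 (SE 0.0629, adjusted p = 2.65e-05, edgeR). Neu4 fell by 1.96 (SE 0.0795, adjusted p = 7.62e-06, edgeR), and Chn2, Sirt2, Tmem163 and Nkx2-2 by 0.37 to 0.87. Alternatives ended the call of Tmem163 in 11 of 15.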

How the data were processed

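The submitters' processing notes name Salmon 0.14.1, mm10 and DESeq2, and no source here gives the annotation. Deposited were the authors' estimated counts and TPM for 17 libraries of the SOX6 experiment and TPM alone for 6 sorted libraries, whose depth is unknown. The authors also deposited log2 fold changes (control over targeted) and DESeq2 p-values, the p-values not used here. Columns were tied to groups by name; 0 columns were left over. Estimated counts were rounded, filtered with filterByExpr (minimum count 10, minimum total 15), scaled by TMM and tested by the quasi-likelihood test of edgeR 4.0.16 (R 4.3.3). Tests were two-sided, and adjusted p under 0.05 over all tested genes (Benjamini-Hochberg) was a call. The OPC and OL libraries had separate fits, the targeting contrast being the mean of both guides minus control; comparisons of stages used 1 fit over 6 groups. Sorted cells were tested with limma 3.58.1 (trend) on log2(TPM + 1) of genes reaching 1 TPM in 3 or more libraries; this scale understates the change of low genes. The scripts were tested on simulated data. Alternatives were DESeq2 1.42.0, other scalings, filters, pseudocounts, a length offset and leaving out each library. Overlap was read from GENCODE M21.

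The members, lists and tests were chosen with earlier results of these data known. Named genes were Gpr17, Lims2, Lims1 and Sox6, the 5 nearest in profile to Gpr17 and to Lims2, protein-coding genes within 300 kb, the IPP core, Cysltr1 and Cysltr2, and up to 4 called genes of each list; other listed genes and markers named complete a count and were named after their values were seen. Some genes of the lists are not reported here by name. The list of desensitisation genes holds 18 entries, older and newer names of the same gene included. Genes that overlap on opposite strands may share reads, since the kit named in the labels does not mark strand.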

Additional observations from a re-analysis of the deposited data

Results flagged for a closer look

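Among the listed partner and stage genes, 10 had a SOX6 response that differed between OLs and OPCs by the test of the difference itself (edgeR interaction, Benjamini-Hochberg adjusted over all genes, 1.69% of 14352 genes called, and 4.46% without library B of guide 1). Values are the response in OLs minus that in OPCs on the log2 scale. The response was higher in OLs for Gnai1 (0.59, adjusted p = 0.00758), Adcy2 (0.58, adjusted p = 0.0143), Slc9a3r1 (0.43, adjusted p = 0.0144) and Rgs16 (2.16, adjusted p = 0.0159). It was lower in OLs for Bcas1 (-1.39, adjusted p = 9.58e-07), Parvb (-0.99, adjusted p = 0.000590), Sirt2 (-0.52, adjusted p = 0.00260), Chn2 (-0.89, adjusted p = 0.0109), Rapgef3 (-0.38, adjusted p = 0.0242) and Fyn (-0.27, adjusted p = 0.0281). The call held under all 22 alternatives for 5 of the 10, Gnai1, Bcas1, Parvb, Sirt2 and Chn2. For Fyn 13 alternatives ended it, for Rapgef3 8, for Adcy2 5, and for Rgs16 and Slc9a3r1 4 each. The 2 members were not tested here, since they were chosen on the responses compared.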

How the results depend on the processing

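The direction of Gpr17 and Lims2 held in all 266 alternative values computed over 8 comparisons, and no tested one crossed the threshold. Counts of called genes moved more. In targeted OPCs the count was 479, with 237 under the length offset, 816 by DESeq2, 254 with both stages in 1 fit, and 149 to 550 with single libraries left out. In targeted OLs it was 874, with 582, 1500 and 1604 under these settings, and 353 to 2337 with single libraries left out, the highest without library B of guide 1. For guide 2 minus guide 1 in OPCs it was 0, with 31 without a filter, 112 by DESeq2 and 0 to 26 with libraries left out; in OLs 0, with 29 by DESeq2 and 0 to 1 with libraries left out. For the stage difference of the response it was 243, with 103 under the length offset, 525 by DESeq2 and 113 to 638 with libraries left out. The cause was not tested. The mean of Lims2 per Gpr17 over 17 libraries was 52.5% in TPM and 6.92% in counts. Lims1 changed sign with libraries left out, from -1.60 to 0.11 in targeted OLs, -0.43 to 1.11 for guide 2 minus guide 1 in OPCs, -1.59 to 0.31 for targeted OLs minus targeted OPCs and -1.35 to 0.56 for the stage difference. Of the calls of listed genes, 2 of 8 in targeted OPCs and 11 of 19 in targeted OLs held under every alternative. The 2 in OPCs were Sox10 and Sox6, the targeted gene itself. No paired analysis was possible because the columns carry letters that the labels do not tie to replicate numbers. The low counts of Lims2 in OPCs limit its precision.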
